A study of Mus musculus with 6 samples.

Results

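The mitochondrially encoded RNAs are the 37 genes of the deposited table whose chromosome is MT, out of 56691 genes in all. They comprise 13 messenger RNAs, 2 ribosomal RNAs and 22 transfer RNAs, with 28 genes on the heavy strand and 9 on the light strand as annotated. Of the 37, 16 had counts and all 16 passed the filter on low counts, and the other 21, all of them transfer RNA genes, were at 0 in every library. Expression was measured by RNA sequencing in 6 libraries of wild-type RAW246.7 cells (the spelling of the labels), a mouse macrophage line. All cells were pretreated with LPS, a bacterial lipid-sugar molecule to which macrophages respond with inflammation, before they were kept for 24 h on MSA-ZW hydrogels (3 libraries) or MSA-DA hydrogels (3 libraries). The comparison asks how macrophage expression differed between the gels, and a positive difference means a higher value on MSA-DA. The labels do not say whether the 3 libraries of a gel are separate cultures, so the p-values speak only for the spread among these libraries, and that spread may be technical. In such bulk samples, a different number of cells carrying a transcript and a different amount per cell cannot be told apart.

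Mitochondrial DNA is a small circle that encodes subunits of the respiratory chain and of ATP synthase together with the ribosomal and transfer RNAs that translate them. The same dedicated RNA polymerase transcribes both strands, each into a long precursor, which is cut at the transfer RNAs that lie between the coding genes. The heavy-strand precursor holds most genes. The light-strand precursor holds mt-Nd6 as its sole messenger RNA, along with several transfer RNAs. Pieces of mitochondrial DNA have also been copied into nuclear chromosomes during evolution, and such copies can resemble their source closely enough to share sequencing reads.

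Count totals ranged from 14374912 to 18346615 in the MSA-DA libraries, and the MSA-ZW libraries had 16347934 to 18193026. Of 10 macrophage markers 9 were tested and their summed level was 4157 to 4233 CPM (counts relative to library size after TMM scaling) on MSA-DA and 4841 to 4888 CPM on MSA-ZW. Itgam was called higher on MSA-DA and Lyz2, the largest part of that sum, Fcgr1, Csf1r and Spi1 lower, and the median log2 difference of the 9 was -0.03. Summed markers of fibroblasts and of endothelial, epithelial, T and B cells reached at most 3.18 CPM in any library. Nuclear ribosomal-RNA-like loci differed between the gels and among the MSA-ZW libraries: Rn18s-rs5 stood at 1420, 1338 and 1328 CPM in MSA-DA replicates 1, 2 and 3 and at 2678, 4483 and 2367 CPM in the MSA-ZW replicates. Per counts outside the mitochondrial and ribosomal-RNA-like rows, the log2 ratio of the mitochondrial share was 0.181, against 0.179 per all counts. With library sizes without those rows, edgeR called 9 mitochondrial genes higher on MSA-DA and 0 lower, and 13.4% of all tested genes in either direction. Any other part of this difference in the mitochondrial results was not tested. Results without MSA-ZW replicate 2 are given where they bear on it.

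Mitochondrial genes held a larger part of the deposited counts on MSA-DA. They made up 3.12, 3.11 and 3.10% of the counts in MSA-DA replicates 1, 2 and 3 and 2.78, 2.73 and 2.73% in the MSA-ZW replicates. Every MSA-DA library was above every MSA-ZW library, and the ratio of the means was 1.13. Without MSA-ZW replicate 2 the log2 ratio was 0.18, as with all libraries. Of 5 tested long noncoding RNAs encoded in the nucleus, 3 were called higher on MSA-DA, where 6.92% of all tested genes were. These were Neat1, Gas5 and Snhg1, with log2 differences of 0.60, 0.58 and 0.44 (edgeR adjusted p of 1.29e-13, 6.46e-13 and 1.42e-07). Malat1 at 0.27 and Kcnq1ot1 at -0.42 did not pass. MSA-ZW replicate 3 stood apart in Malat1, at 433 CPM against 818 and 870 in MSA-ZW replicates 1 and 2. The same held in Kcnq1ot1, at 15.2 against 41.5 and 43.6 CPM. Without MSA-ZW replicate 3 the log2 ratio of the mitochondrial share was 0.17. The part of these noncoding RNAs in the mitochondrial share was not tested. The messenger RNAs alone took 3.03 ± 0.0157% of the counts on MSA-DA against 2.68 ± 0.0285% on MSA-ZW (SD, n = 3), without overlap. The ribosomal RNAs made up 0.0732 ± 0.0018% and 0.0624 ± 0.0022% (SD, n = 3), again without overlap. Transfer RNA counts came from 1 gene and made up 0.00272 ± 0.000235% and 0.00253 ± 0.000272% (SD, n = 3), with overlapping groups. Within the mitochondrial counts, messenger RNAs held 97.6 ± 0.0756% on MSA-DA against 97.6 ± 0.0938% on MSA-ZW (SD, n = 3). The groups also overlapped in the shares of ribosomal and transfer RNA within the mitochondrial counts. Sums over the members were given no test.

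**Figure D1:**
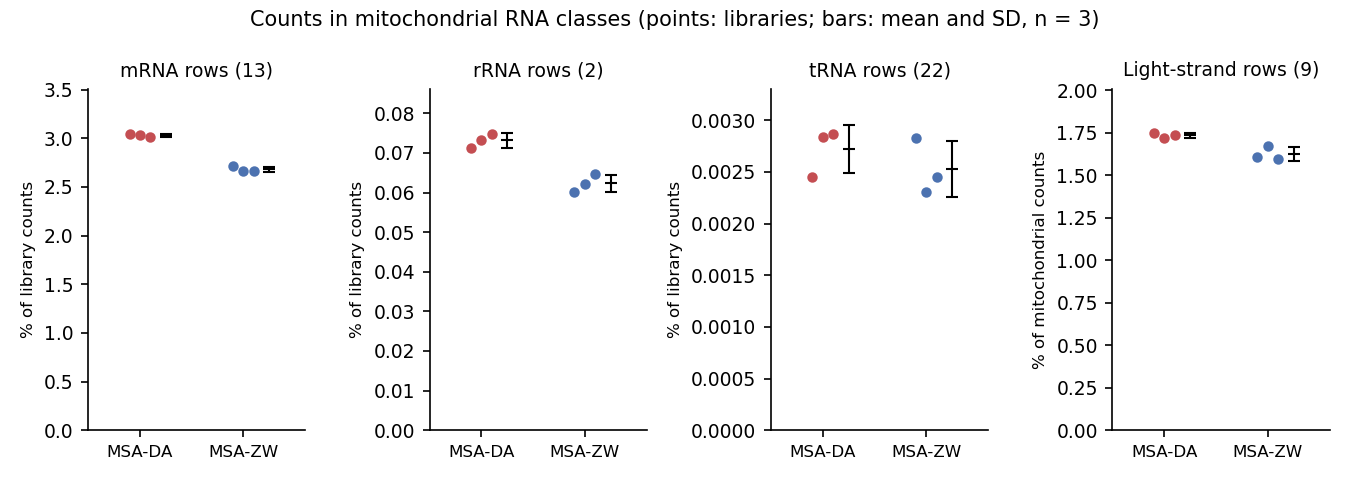
Percent of library counts in the mitochondrial messenger, ribosomal and transfer RNA genes, and percent of mitochondrial counts in genes of the light strand, for each library (points) with the group mean and SD (bars). The groups separate for messenger RNA (3.03 against 2.68%), ribosomal RNA and the light strand, and overlap for transfer RNA.

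Of the 16 tested members, edgeR's quasi-likelihood test called 9 higher on MSA-DA and 0 lower at an adjusted p below 0.05. Over all 12467 tested genes it called 6.92% higher and 6.5% lower. Among the 3694 genes averaging 64 CPM or more, 14.3% were called higher. All 16 log2 differences were above 0, so no member was lower at an unadjusted p either, and DESeq2 and limma called 0 lower. DESeq2 gave an adjusted p to 12 of the 16. The median over the 16 members was 0.18 on the log2 scale. By class, 8 of 13 messenger RNAs, 1 of 2 ribosomal RNAs and 0 of 1 tested transfer RNAs were called. The groups did not overlap in 10 of the 16, with MSA-DA higher each time, where 14.7% of all tested genes, and 23.2% of those averaging 64 CPM or more, separated in that direction. The members share 6 libraries and 2 precursor transcripts, so they are no independent replicates of the difference.

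**Figure D2:**
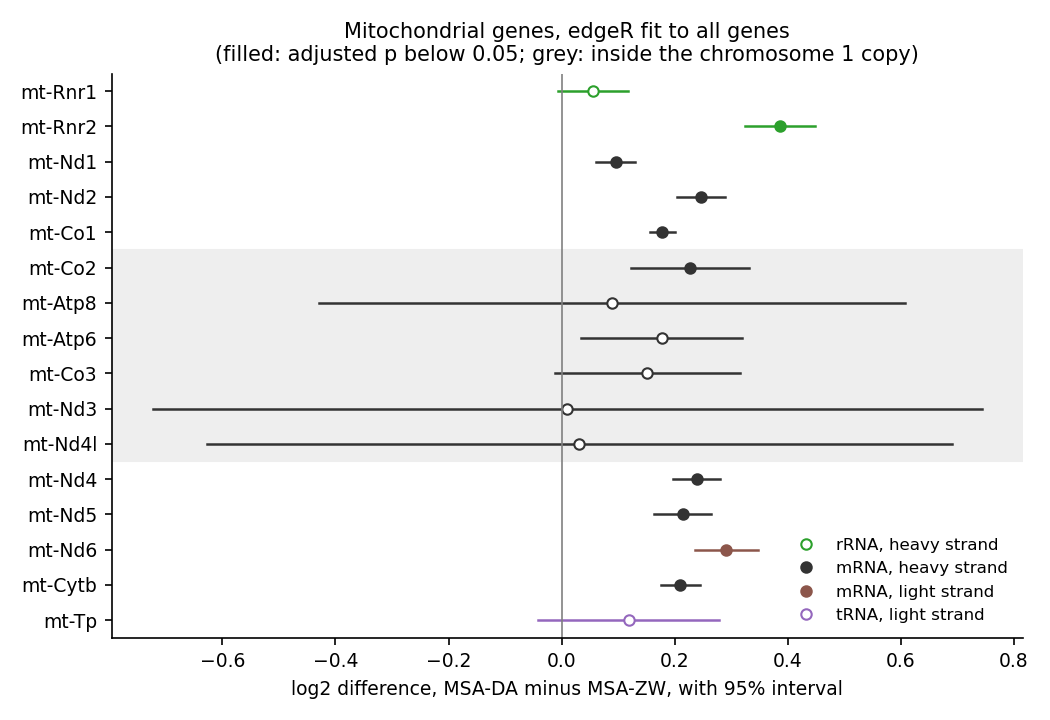
Log2 difference of each tested mitochondrial gene, MSA-DA minus MSA-ZW, with its 95% interval from the edgeR fit to all genes, in order along the mitochondrial genome. Filled points passed the test, and mt-Rnr2 at 0.39 and mt-Nd6 at 0.29 lie farthest to the right.

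The ribosomal RNAs had unlike differences between the gels. mt-Rnr2, the RNA of the large mitochondrial ribosomal subunit (ENSMUSG00000064339, MT, 1094 to 2675, heavy strand, GRCm39), stood at 413, 429 and 436 CPM in MSA-DA replicates 1, 2 and 3 and at 316, 320 and 342 CPM in the MSA-ZW replicates. All MSA-DA libraries were above all MSA-ZW libraries, the fold was 1.31, and on the log2 scale the difference was 0.39 (standard error 0.03, edgeR adjusted p = 1.84e-11). Without MSA-ZW replicate 2 it was 0.37 (edgeR adjusted p = 3.00e-09). mt-Rnr1, the RNA of the small subunit, lies upstream on the same strand with only the transfer RNA gene mt-Tv between them (MT, 70 to 1024). It stood at 303, 305 and 314 CPM on MSA-DA and at 283, 302 and 302 CPM on MSA-ZW. The lowest MSA-DA library was above the highest MSA-ZW library by a small margin, and the log2 difference of 0.06, with a 95% interval from -0.01 to 0.12, did not pass (edgeR adjusted p = 0.255). Without MSA-ZW replicate 1 it was 0.02 (edgeR adjusted p = 0.727).

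The count of mt-Rnr2 divided by that of mt-Rnr1 was 1.36, 1.41 and 1.39 in the MSA-DA libraries and 1.12, 1.06 and 1.13 in the MSA-ZW libraries. The groups of ratios did not overlap, with means of 1.39 ± 0.023 and 1.10 ± 0.0377 (SD, n = 3). The two-sided exact permutation p was 0.1, the smallest that 3 against 3 libraries allow, and 0.15 after Benjamini-Hochberg adjustment over the 3 ratios computed, which were chosen after the values were seen. A ratio within a library does not depend on the scaling between libraries. Per length, the ribosomal RNAs were 321 ± 6.58 FPKM for mt-Rnr1 and 269 ± 7.84 FPKM for mt-Rnr2 on MSA-DA (SD, n = 3), below the levels of the 7 messenger RNAs described next. Ribosomal RNA is the most abundant RNA class of mitochondria, and the sources used here do not say whether library preparation selected or depleted RNA classes.

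**Figure D3:**
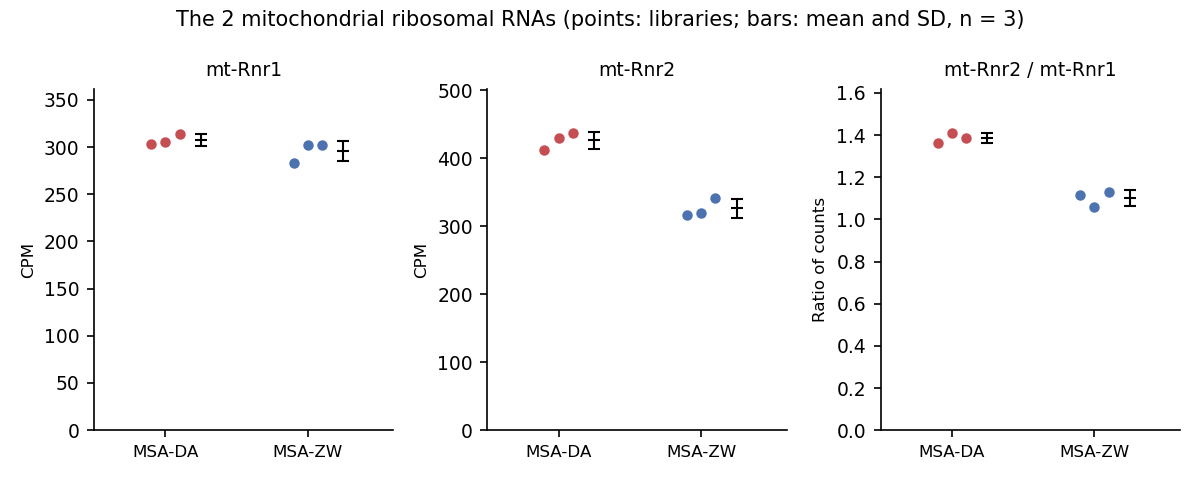
CPM of mt-Rnr1 and mt-Rnr2 and the ratio of their counts in each library (points), with group means and SD (bars). mt-Rnr2 and the ratio separate the gels widely, at 1.39 against 1.10 for the ratio, while mt-Rnr1 differs little.

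A stretch of the mitochondrial genome, described below, is copied on chromosome 1 and holds 6 messenger RNA genes as a whole and parts of mt-Co1 and mt-Nd4. All 7 messenger RNAs not wholly inside that stretch rose on MSA-DA, and in each the groups did not overlap. mt-Co1, the catalytic core of cytochrome c oxidase (ENSMUSG00000064351, MT, 5328 to 6872, GRCm39), was the most abundant and held 51.5 to 52.6% of mitochondrial counts. It stood at 16118, 16129 and 16033 CPM in the MSA-DA libraries and at 14306, 14081 and 14281 CPM in the MSA-ZW libraries. The MSA-DA libraries lay close together and well above the others, at 1.13-fold (log2 difference 0.18, standard error 0.01, edgeR adjusted p = 4.41e-14). mt-Cytb, cytochrome b of complex III (MT, 14145 to 15288), stood at 4511, 4449 and 4397 CPM on MSA-DA against 3900, 3886 and 3760 CPM on MSA-ZW. It was 1.16-fold higher, a difference larger than the spread of either group (edgeR adjusted p = 2.32e-11).

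The remaining 5 encode subunits of complex I, the NADH dehydrogenase that feeds electrons into the chain. mt-Nd2 (MT, 3914 to 4951) stood at 1850, 1795 and 1786 CPM on MSA-DA and at 1534, 1550 and 1494 CPM on MSA-ZW, 1.19-fold higher (edgeR adjusted p = 8.00e-11). mt-Nd4 (MT, 10167 to 11544) stood at 1782, 1702 and 1727 CPM against 1479, 1477 and 1460 CPM, 1.18-fold higher (edgeR adjusted p = 1.50e-10). mt-Nd5 (MT, 11742 to 13565) stood at 2348, 2364 and 2363 CPM against 2167, 1995 and 1937 CPM, 1.16-fold higher (edgeR adjusted p = 8.55e-08). In mt-Nd5 the MSA-ZW libraries were spread more widely than the MSA-DA libraries, with MSA-ZW replicate 1 highest. mt-Nd1 (MT, 2751 to 3707) showed the smallest rise of the 7, at 3339, 3296 and 3281 CPM against 3096, 3129 and 3052 CPM, or 1.07-fold (log2 difference 0.10, edgeR adjusted p = 0.000109).

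mt-Nd6, the sole light-strand messenger RNA (ENSMUSG00000064368, MT, 13552 to 14070, GRCm39), had the largest difference among the messenger RNAs. It stood at 522, 506 and 510 CPM in the MSA-DA libraries and at 416, 433 and 408 CPM in the MSA-ZW libraries. The groups were far apart, at 1.22-fold (log2 difference 0.29, standard error 0.03, edgeR adjusted p = 9.19e-10). Its first 60 bases are shown because the light-strand result rests on this gene, and c is rare among them (GENCODE M21 transcript, 5′ to 3′, matched by gene ID).
mt-Nd6: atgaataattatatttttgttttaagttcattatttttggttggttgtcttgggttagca

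The other light-strand RNA with counts, mt-Tp, the transfer RNA for proline, did not pass, so the strand as a whole rests on mt-Nd6. Light-strand genes held 1.74, 1.72 and 1.74% of mitochondrial counts on MSA-DA and 1.61, 1.67 and 1.59% on MSA-ZW. The groups did not overlap, and the means were 1.73 ± 0.0137% and 1.62 ± 0.0406% (SD, n = 3). The count of mt-Nd6 relative to that of mt-Cytb, its neighbour on the opposite strand, was 0.116, 0.114 and 0.116 on MSA-DA and 0.107, 0.111 and 0.109 on MSA-ZW, without overlap (exact permutation p = 0.1, adjusted 0.15). Relative to mt-Nd5, which overlaps it by 14 bases, the groups overlapped (exact permutation p = 0.3, adjusted 0.3). The sources used here do not give the strand setting of the counting, so reads from the strand opposite mt-Nd6 cannot be told apart from its own.

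To compare members with each other rather than with nuclear genes, library sizes were set to the mitochondrial messenger RNA counts, of which mt-Co1 is the major part. This moved the median of all tested genes to -0.18 on the log2 scale, and edgeR then called 53.8% of all tested genes. On this scale mt-Rnr2, mt-Nd6 and mt-Nd2 remained higher, with log2 differences of 0.20, 0.11 and 0.06 (edgeR adjusted p of 1.61e-06, 0.00267 and 0.0302). mt-Rnr1 and mt-Nd1 were lower, at -0.13 and -0.09 (edgeR adjusted p of 0.00087 and 0.000393). The other 11 did not pass, among them mt-Cytb at 0.02 and mt-Co1 at -0.01. Along the heavy strand, mt-Rnr1 and mt-Nd1, which were lower on this scale, lie on either side of mt-Rnr2, which had the largest positive difference.

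Mitochondrial genes are poor in G and C, at 31.9 to 41.1% for the messenger and ribosomal RNAs against a median of 49.1% over tested genes. After a correction of all libraries for GC content and length, the median log2 difference of the 16 members went from 0.18 to 0.09 and 7 were called, where 10.7% of all genes were called in that fit. mt-Nd1 and mt-Co2 no longer passed (log2 differences of 0.01 and 0.14, edgeR adjusted p of 0.741 and 0.0579), and mt-Rnr2, mt-Nd6 and mt-Nd2 stood at 0.29, 0.19 and 0.16 and passed.

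Levels per length fell into separate ranges along the genome. The 7 messenger RNAs described above had group means of 809 FPKM (counts divided by gene length and library total) or more, with mt-Co1 at 10389 ± 29.1 FPKM on MSA-DA against 9230 ± 97.1 FPKM on MSA-ZW (SD, n = 3). The other 6, mt-Co2, mt-Atp8, mt-Atp6, mt-Co3, mt-Nd3 and mt-Nd4l, are consecutive messenger RNA genes between mt-Co1 and mt-Nd4, and none exceeded 81.7 FPKM in any library. Among them mt-Co2, a copper-binding subunit of cytochrome c oxidase, was highest, at 80.0 ± 2.62 FPKM on MSA-DA against 68.8 ± 3.22 FPKM on MSA-ZW (SD, n = 3). mt-Nd3, a complex I subunit, was lowest, at 2.63 ± 0.646 and 2.66 ± 0.742 FPKM (SD, n = 3). Together these 6 held 0.368 to 0.43% of mitochondrial counts in each library.

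**Figure D4:**
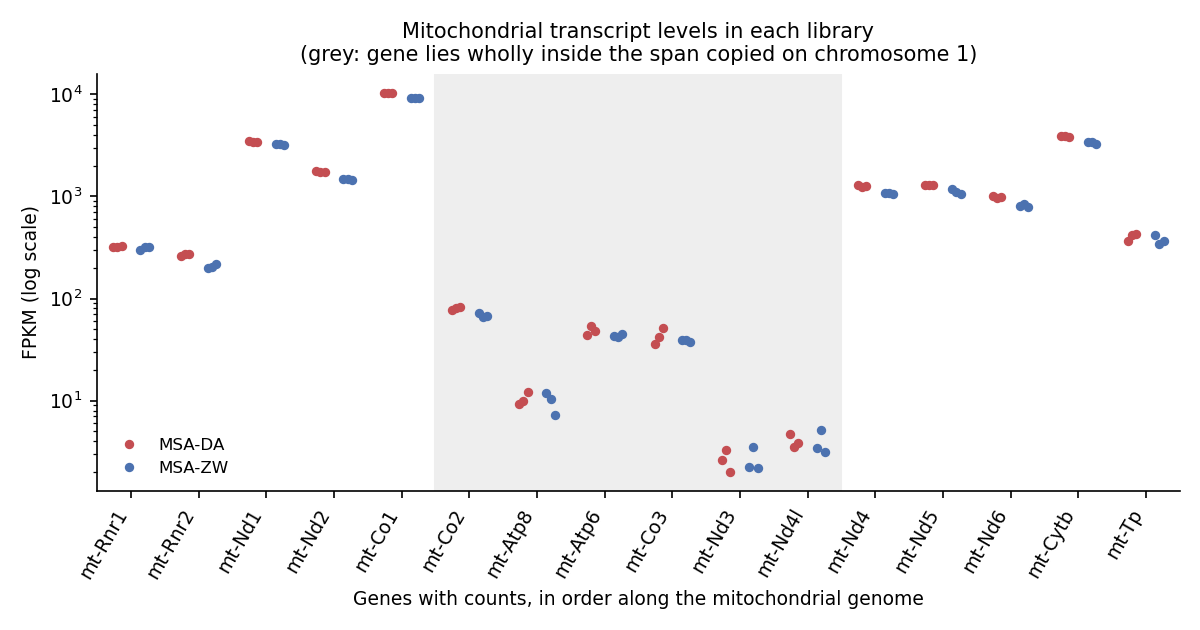
FPKM on a log scale of the 16 mitochondrial genes with counts, in genome order, for each library of MSA-DA (red) and MSA-ZW (blue). The 6 genes on grey lie inside the span that is copied on chromosome 1 and sit at or below 81.7 FPKM, while the lowest value of the other 10 is 200.8.

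The low stretch matches a nuclear copy. On chromosome 1, 7 annotated pseudogenes between 24650616 and 24655278 (GRCm39, minus strand) match the mitochondrial genome from 6381 to 11042 in the same order. Over 4149 aligned bases of GENCODE M21 transcripts they differ from the mitochondrial genes at 7, and paired positions stay in step to within 1 base across 4662 bases. Gm28437 is identical to mt-Co3 over 783 bases, Gm10925 to mt-Atp6 over 678, Gm28661 to mt-Co2 over 681 and Gm10222 to mt-Nd4l over 294. Gm28438 differs from mt-Nd3 at 1 of 345 bases. The copy also takes in the first 876 bases of mt-Nd4 without a difference and, with 6 differences, the last 492 bases of mt-Co1. No transcript of that reference was kept as a match of mt-Atp8, and the search left out short matches, so these could not be seen. The interval between Gm10925 and Gm28661 is 233 bases long, the same as between the matching ends of mt-Co2 and mt-Atp6. The sources used here do not say how reads that fit both places equally well were counted, and the part of the copy in the low values was not tested.

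The sequences below are shown because counts of these genes and of their copies may share reads. Each is given 5′ to 3′ from GENCODE M21 by gene ID, over the first 60 bases of the pair, with differing bases in capitals. mt-Co3 and Gm28437 have none in this window and none over their whole shared length.
mt-Co3: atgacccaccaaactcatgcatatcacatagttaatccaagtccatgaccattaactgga
Gm28437: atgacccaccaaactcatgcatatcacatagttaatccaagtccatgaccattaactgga
mt-Nd3 and Gm28438 differ at their single position near the start.
mt-Nd3: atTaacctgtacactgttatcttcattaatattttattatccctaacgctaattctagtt
Gm28438: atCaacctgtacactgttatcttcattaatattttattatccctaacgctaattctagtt
An abundant member, mt-Cytb, has a less similar copy on chromosome 4, Gm11410, which differs at 82 of 1143 bases, 3 of them in this window.
mt-Cytb: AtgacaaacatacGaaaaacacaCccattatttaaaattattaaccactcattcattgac
Gm11410: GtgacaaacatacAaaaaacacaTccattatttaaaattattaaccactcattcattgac

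Of the 6 messenger RNAs wholly inside the copied stretch 1 was called, against 7 of the 7 that lie outside it or only partly inside. Over all tested genes 6.92% were called higher. Low counts left wide intervals in the scarcest. As a share of library counts, the genes wholly inside the stretch had a log2 ratio of 0.176, and the 7 other messenger RNAs one of 0.178. The groups overlapped in neither sum. Inside the stretch the margin was small, with 0.0115% in MSA-DA replicate 1 against 0.0114% in MSA-ZW replicate 1. mt-Co2 (MT, 7013 to 7696) had 757, 1020 and 884 counts on MSA-DA and 817, 740 and 844 on MSA-ZW. At 52.8, 55.7 and 56.0 CPM against 49.3, 45.2 and 46.2 CPM the groups did not overlap, and mt-Co2 was 1.17-fold higher (edgeR adjusted p = 0.00221). mt-Atp6, the proton channel subunit of ATP synthase, stood at 30.1, 37.2 and 33.0 CPM against 29.4, 28.9 and 30.7 CPM. The lowest MSA-DA library fell among the MSA-ZW libraries, and the log2 difference of 0.18 did not pass (95% interval 0.03 to 0.32, edgeR adjusted p = 0.0924). mt-Co3, a further cytochrome c oxidase subunit, stood at 28.1, 32.8 and 40.0 CPM against 30.6, 30.9 and 29.6 CPM, and its log2 difference of 0.15 did not pass (edgeR adjusted p = 0.237). In mt-Co3 the MSA-DA libraries spread on both sides of the MSA-ZW libraries, with MSA-DA replicate 1 lowest. Both values turned on single libraries. Without MSA-DA replicate 1, mt-Atp6 and mt-Co3 passed, with log2 differences of 0.24 and 0.25 (edgeR adjusted p of 0.0372 and 0.038). That of mt-Atp6 was 0.08 without MSA-DA replicate 2 (edgeR adjusted p = 0.589), and leaving out MSA-DA replicate 3 gave 0.0086 for mt-Co3 (edgeR adjusted p = 0.967).

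The 3 scarcest messenger RNAs had 11 to 40 counts per library. mt-Atp8, a small subunit of ATP synthase, had 27, 37 and 39 counts on MSA-DA and 40, 35 and 27 on MSA-ZW. mt-Nd3 had 13, 21 and 11 against 13, 20 and 14 counts, and mt-Nd4l, another complex I subunit, had 20, 19 and 18 against 17, 25 and 17. Their log2 differences were 0.09, 0.01 and 0.03, with intervals reaching from -0.72 to 0.74 in mt-Nd3, so a difference of the size seen in the abundant members was not detectable at this depth.

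The annotated pieces of the nuclear copy had 1694 to 2471 counts in sum per library. Gm10925, identical to mt-Atp6, had 663, 1010 and 838 counts on MSA-DA and 894, 804 and 869 on MSA-ZW, more than mt-Atp6 itself in each library (431, 680 and 520 against 487, 473 and 560). Gm28437, identical to mt-Co3, had 269, 478 and 405 against 383, 365 and 597 counts. A list of annotated nuclear copies had 10 tested genes, of which Gm12715 was not among the copies kept by shared stretches of sequence. Of these 10 edgeR called 0, with 1 higher and 0 lower at an unadjusted p below 0.05, where it called 13.4% of all tested genes. DESeq2 called 0 and limma on log2(FPKM + 1) called 1 higher, where they called 15.5% and 7.01% of all genes with an adjusted p. So few genes cannot show whether the copies differ less often than other genes. With the counts of each piece added to its mitochondrial match, edgeR called 9 of 16 members, as before. In that sum mt-Co3 had a log2 difference of 0.02 and mt-Atp6 one of 0.09, and neither passed (edgeR adjusted p of 0.894 and 0.237).

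Among the 22 transfer RNA genes mt-Tp alone had counts. It is 67 bases long, lies on the light strand (ENSMUSG00000064372, MT, 15356 to 15422, GRCm39) and is the last annotated gene before the control region. Its sequence is given because it is the only transfer RNA that the table detects (GENCODE M21, 5′ to 3′).
mt-Tp: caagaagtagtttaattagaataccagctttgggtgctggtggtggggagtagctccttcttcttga
mt-Tp had 352, 521 and 454 counts on MSA-DA and 467, 377 and 445 on MSA-ZW. The groups overlapped, and at 27.3 ± 2.34 against 25.2 ± 2.67 CPM (SD, n = 3) the log2 difference of 0.12 did not pass (95% interval -0.04 to 0.28, edgeR adjusted p = 0.371). It ranged from 0.06 without MSA-ZW replicate 2 to 0.20 without MSA-ZW replicate 1 and passed in no fit that left out 1 library. All other 21 transfer RNA genes, 14 on the heavy and 7 on the light strand, were at 0, which allows at most 0.209 CPM in the shallowest library from counting error alone. Of the 22, 20 have annotated genes on both sides at no more than 32 bases, while mt-Tp and mt-Tf lie at the ends of the annotation. The sources used here do not say how reads over more than 1 gene were counted.

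Nuclear genes that serve mitochondrial DNA and RNA were taken from 6 lists. Of 95 tested, 8 were called higher, or 8.42% where 6.92% of all tested genes were, and 1 lower, or 1.05% where 6.5% were. The 1 called lower was Lars2, which is also on the list of ribosomal-RNA-like loci and is described below. In either direction the share was 9.47% against 13.4%. Leaving out MSA-DA replicate 2 brought the 9 calls down to 3, with 7.89% of all genes called in that fit, and leaving out MSA-DA replicate 3 to 5, with 8.37%. DESeq2 made 4 calls among the 50 listed genes to which it gave an adjusted p, where it called 15.5% of all such genes. With limma on log2(FPKM + 1) there were 3 calls, where 7.01% of all genes were called. Their median log2 difference was 0.03. In the list for transcription of mitochondrial DNA, edgeR called 0 of 12, with 0 higher and 1 lower at an unadjusted p below 0.05, and DESeq2 and limma called 0. Polrmt, the mitochondrial RNA polymerase, stood at 14.9, 15.9 and 14.8 CPM on MSA-DA and at 18.2, 17.7 and 17.6 CPM on MSA-ZW. Its groups did not overlap, with MSA-DA lower, but the log2 difference of -0.23 did not pass (edgeR adjusted p = 0.0695). After the GC content and length correction it was -0.14 (edgeR adjusted p = 0.334). Tfam, which packages the DNA and starts transcription, stood at 69.8 ± 1.97 CPM against 68.9 ± 2.14 CPM (SD, n = 3), and the groups overlapped (log2 difference 0.02, edgeR adjusted p = 0.822).

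RNA processing genes were called higher in 3 of 27, where 6.92% of all tested genes were called higher. Trmt10c, a subunit of the enzyme that cuts the 5′ ends of mitochondrial transfer RNAs, stood at 75.3, 69.2 and 72.4 CPM on MSA-DA against 60.3, 61.0 and 61.4 CPM on MSA-ZW, 1.18-fold higher (edgeR adjusted p = 0.000217). Trnt1, which adds the CCA end of transfer RNAs, and Mettl17, a methyltransferase-like protein of the mitochondrial ribosome, were higher with log2 differences of 0.12 and 0.32. Those calls were lost without MSA-DA replicate 2 (edgeR adjusted p of 0.129 for Trnt1, 0.18 for Mettl17) and without MSA-ZW replicate 1 (0.064 for Trnt1, 0.0867 for Mettl17). That of Trnt1 was also lost without MSA-DA replicate 3 (0.0677) and after the GC content and length correction (log2 difference 0.05, edgeR adjusted p = 0.461).

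RNA stability genes were called higher in 2 of 13, beside the same 6.92% of all tested genes. Fastkd3, of a family of mitochondrial RNA-binding proteins, stood at 43.1, 43.3 and 40.4 CPM against 33.1, 33.6 and 32.7 CPM, 1.28-fold higher, and the groups were far apart (edgeR adjusted p = 4.37e-05). Lrpprc, which stabilises mitochondrial messenger RNAs, stood at 203, 199 and 201 CPM against 191, 186 and 186 CPM, 1.07-fold higher (edgeR adjusted p = 0.0241). The call of Lrpprc was lost without MSA-DA replicate 1, 2 or 3 or MSA-ZW replicate 2 (edgeR adjusted p of 0.113, 0.0879, 0.104 and 0.101) and after the GC content and length correction (0.0687).

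In the other 3 lists, single genes were called, where 6.92% of all tested genes were called higher and 6.5% lower. Slc25a36, a mitochondrial carrier of pyrimidine nucleotides, was called among 18 tested DNA maintenance genes, with a log2 difference of 0.17. Its call was lost without MSA-DA replicate 2 or MSA-ZW replicate 2 or 3 (edgeR adjusted p of 0.123, 0.0627 and 0.0708) and after the GC content and length correction (log2 difference 0.11, edgeR adjusted p = 0.108). Gabpb2, a subunit of a regulator of mitochondrial genes, was called among 8 biogenesis genes, with a log2 difference of 0.13, and lost its call without MSA-DA replicate 2 or 3 or MSA-ZW replicate 3 (0.0841, 0.052 and 0.0988). Of 17 mitochondrial aminoacyl-tRNA synthetases, Hars2 was higher by 0.19 on the log2 scale and Lars2 was lower. The call of Hars2 was lost in each fit that left out 1 library (edgeR adjusted p of 0.0646 to 0.14) and after the GC content and length correction (0.0619). Lars2, the leucyl-tRNA synthetase, was also on the list of nuclear ribosomal-RNA-like loci, so its counts may not stand for its messenger RNA. It stood at 185, 181 and 176 CPM on MSA-DA and at 514, 1067 and 269 CPM on MSA-ZW. Its MSA-ZW libraries differed several-fold among themselves in the same order as those of Rn18s-rs5. Its log2 difference was -1.77 with all libraries and -1.11 without MSA-ZW replicate 2. With limma (pseudocount 1 on FPKM) its adjusted p was 0.0637. Of the 9 called nuclear genes, Fastkd3 and Trmt10c passed in all 11 alternatives. The losses printed above for the others are not all. Over all alternatives the call was lost in 10 for Hars2, 8 for Lrpprc, 6 for Slc25a36 and 5 for Trnt1. It was lost in 4 for Gabpb2, 3 for Mettl17 and 1 for Lars2. DESeq2 gave Mettl17 no adjusted p, so that alternative is missing for it. The other library scalings were not among the alternatives for nuclear genes. In the list of Slc25a36 both DESeq2 and limma on log2(FPKM + 1) called 0.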

How the data were processed

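The submitters' processing notes name HISAT2 2.2.1, bcl2fastq 2.20.0.422, cutadapt 1.9.1 and build GRCm39. The sources used here do not give the counting tool, its strand and multiple-mapping settings or the annotation release. The authors deposited raw counts and FPKM values for 56691 genes in 6 libraries, per the file headers. The deposited FPKM values equal count over exonic length and library total to within 0.005. RNA class was read from the deposited gene descriptions, since the table has no column for it, and strand from its strand column, where light means the strand of mt-Nd6.

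Counts were fitted for all genes with edgeR 4.0.16 (R 4.3.3; TMM scaling, filterByExpr, then glmQLFit and glmQLFTest with gel as the sole term), with Benjamini-Hochberg adjustment over 12467 genes and a threshold of 0.05. Intervals are 95%. All 6 libraries were used as separate samples. The chi-square per degree of freedom between libraries was 1.56 to 4.49 within groups and 5.72 to 9.3 between them. Among the MSA-DA libraries it was 1.56 to 1.65. In the edgeR fit the common coefficient of variation between libraries of a group was 3.04%. These values do not show whether the libraries of a gel are separate cultures. Sequences were matched by gene ID to GENCODE M21 transcripts (GRCm38), whose mitochondrial coordinates equal the deposited ones for all 37 genes. Nuclear copies were found by shared stretches of 31 bases, and transcripts with few such stretches were left out. GC content was known for 98.9% of tested genes.

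Alternatives were DESeq2 1.42.0, limma 3.58.1 on log2(FPKM + 1) or log2(FPKM + 0.1), other scalings and filters, a GC content and length correction, a replicate block and leaving out each library. Adding the nuclear copy's counts, and the block with the GC correction, were chosen after seeing the data. The members and lists were chosen with earlier results of these data known. Named nuclear genes are Polrmt, Tfam, Lrpprc, Lars2 and, for each list, the 3 called genes with the smallest p in each direction. Of 101 listed symbols 97 were in the table.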

Additional observations from a re-analysis of the deposited data

How the results depend on the processing

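The count of 9 called members was the same in 14 of 20 alternatives. In those, 6.39% (no filter on low counts) to 15.5% (DESeq2) of all genes with an adjusted p were called. The count ranged from 9 to 11 when 1 library was left out, where 7.89 to 13% of all tested genes were called. It was 8 with limma on log2(FPKM + 1) or log2(FPKM + 0.1), where mt-Nd1 did not pass (adjusted p of 0.0612 and 0.0566), 7 with the GC content and length correction, with or without the replicate block, and 5 (3 higher, 2 lower) with library size set to mitochondrial messenger RNA counts, a scale on which the members are compared with their own sum. On that scale the log2 differences of mt-Rnr1, mt-Nd1, mt-Co1, mt-Atp8, mt-Atp6, mt-Co3, mt-Nd3, mt-Nd4l and mt-Tp were below 0, at -0.13, -0.090, -0.0075, -0.095, -0.0087, -0.033, -0.17, -0.15 and -0.067. After the GC content and length correction those of mt-Rnr1, mt-Atp8, mt-Nd3, mt-Nd4l and Tfam were -0.037, -0.025, -0.098, -0.047 and -0.014, and with the replicate block besides, those of the first 4 were -0.036, -0.024, -0.12 and -0.048. mt-Nd3 was also below 0 with the replicate block alone (-0.016), with limma (-0.0099 with a pseudocount of 1, with or without the FPKM filter, and -0.013 with 0.1) and with the nuclear copy's counts added (-0.16), as was mt-Nd4l in the last (-0.050). None of these values passed except those of mt-Rnr1 and mt-Nd1 on the mitochondrial scale. Leaving out 1 library, the log2 differences ranged from -0.10 to 0.24 for mt-Atp8, from -0.21 to 0.25 for mt-Nd3, from -0.11 to 0.27 for mt-Nd4l and from -0.0084 to 0.033 for Tfam; the cause was not tested, and the first 3 rest on few counts. The light-strand share of mitochondrial counts had a log2 ratio of 0.09, and of 0.053 as a share of summed FPKM, in which mt-Tp weighs more for its short length. The shares of all mitochondrial, messenger, ribosomal and transfer RNA were run only with other denominators and with 1 library left out. In these runs they moved by less than the spread between libraries. For transfer RNA that spread, 0.20 on the log2 scale, was larger than the log2 ratio of 0.11, so a move to 0 would not have stood out. The GC content and length correction was not applied to the shares. Of the nuclear genes 9 were called, against 4 with DESeq2, 3 with limma on log2(FPKM + 1) and 3 to 9 without 1 library (3 without MSA-DA replicate 2, 5 without MSA-DA replicate 3). The replicate numbers gave no pairing, with correlations of same-numbered libraries of 0.022, 0.008 and 0.001, not every library correlating best with its own number. The replicate block left 9 members called and changed no other call among the members.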
